A study of Homo sapiens with 6 samples.

Results

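IDO1 and 8 other genes of the kynurenine pathway were followed on 6 microarrays of the human ovarian cancer line A2780. The 9 genes are IDO1, IDO2, TDO2, AFMID, KMO, KYNU, HAAO, QPRT and AHR, and all 9 were found among the 18418 genes measured, each through 1 probe set. They were chosen by annotation to the pathway after it was known from these same arrays that IDO1 was lower with BMI1 knockdown. The values below therefore describe the arrays, and no test is given for a member against its control.

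Lentivirus brought shRNAs, hairpin transcripts that trigger decay of a matching RNA, into the cells. The groups were 2 hairpins against BMI1, a subunit of Polycomb repressive complex 1, with their own control infection, and 2 hairpins against FAL-1, a long non-coding RNA, with their own control infection. Each hairpin and each control had 1 array. All cells were A2780, grown with 10% serum, with a medium change at hour 24 and collection 96 hours after infection. What the control virus carried is not described beyond a control shRNA, and neither separate cultures nor clones are described, so any spread may be technical.

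The pathway breaks down tryptophan. IDO1, IDO2 and TDO2 open the tryptophan ring, AFMID turns the product into kynurenine, and KMO, KYNU and HAAO carry it on toward quinolinate, which QPRT feeds into NAD synthesis. Kynurenine and some of its products bind AHR, a ligand-activated transcription factor. IDO1 is best known as a gene induced by interferon gamma that limits T cell activity, and it is expressed in many tumours, ovarian cancer among them.

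Levels are given on the log2 scale, and the array medians lay between 6.94 and 7.09. Across genes, arrays of one target correlated at 0.976 to 0.993 and arrays of different targets at 0.968 to 0.992. FAL-1 hairpin 2 stood apart, with 2064 genes at 1.5-fold or more from its control, against 463 for FAL-1 hairpin 1, 922 for BMI1 hairpin 1 and 1072 for BMI1 hairpin 2. BMI1 itself read 8.73 and 9.99 with BMI1 hairpins 1 and 2, against 10.64 in their control. It read 10.84 and 10.51 with FAL-1 hairpins 1 and 2, against 10.84 in theirs. FAL-1 was not checked, because its symbol is not among the annotated probe sets used here. Of 12 markers listed for ovarian and epithelial cells, 7 read under 7 on every array, PAX8, EPCAM, MUC16 and CDH1 among them. VIM, which stands in that list but is best known from mesenchymal cells, read 12.62 to 12.82. The summed log2 values of the 12 were 88.1 and 90.7 with the BMI1 hairpins, against 87.7 in their control, and 87.8 and 93.9 with the FAL-1 hairpins, against 88.1 in theirs. The epithelial keratins KRT8 and KRT19 read 11.07 and 8.57 with FAL-1 hairpin 2, against 9.28 and 6.72 in its control. With FAL-1 hairpin 1 they read 9.04 and 6.73. No other marker of that list changed as much with FAL-1 hairpin 2. KRT18, a further keratin of the list, read 9.47 with FAL-1 hairpin 2 and 8.45 with FAL-1 hairpin 1, against 8.79 in their control. KRT7 and EPCAM read 6.67 and 6.34 with FAL-1 hairpin 2, against 6.53 and 6.36 in its control. Of 9 measured markers of immune cells, 7 read under 7 on every array, PTPRC at 5.0 to 5.10 and CD14 at 6.41 to 6.65 among them. The others were ITGAX, at 7.85 with FAL-1 hairpin 2 against 6.64 in its control, and CD68, at 9.23 with FAL-1 hairpin 2 against 8.34 in its control. The summed log2 values of the immune list were 53.4 and 54.7 with the BMI1 hairpins, against 53.6 in their control, and 55.1 and 57.8 with the FAL-1 hairpins, against 55.7 in theirs. Of 8 measured markers of endothelial cells and fibroblasts, 4 read under 7 on every array. The others were COL1A1, COL1A2, DCN and PDGFRB, with COL1A2 at 9.84 to 11.03. PDGFRB read 6.69 and 7.09 with the BMI1 hairpins, against 7.92 in their control. It read 7.15 and 7.07 with the FAL-1 hairpins, against 7.74 in theirs. PDGFRB was the 1 gene of the list below its control with both hairpins of a target, for each target. With both hairpins 3 were above for BMI1 and 4 for FAL-1. The summed log2 values of that list were 58.1 and 59.4 with the BMI1 hairpins, against 59.1 in their control. With the FAL-1 hairpins they were 60.2 and 61.3, against 59.9 in their control. The part of all these markers in the results below was not tested.

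IDO1, the tryptophan-opening enzyme induced by interferon gamma, was lower with all 4 hairpins than in both controls. It read 8.91 with BMI1 hairpin 1 and 8.49 with BMI1 hairpin 2, against 10.09 in the BMI1 control. It read 9.01 with FAL-1 hairpin 1 and 8.35 with FAL-1 hairpin 2, against 9.64 in the FAL-1 control. No hairpin array overlapped a control array, and the highest hairpin value lay 0.63 log2 units below the lowest control value. On a linear scale IDO1 stood at 44.0% and 33.1% of its control with BMI1 hairpins 1 and 2, and at 64.4% and 40.9% with FAL-1 hairpins 1 and 2. In bulk RNA, fewer cells with the transcript and less transcript per cell cannot be told apart.

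The mean log2 change of IDO1 was -1.39 ± 0.29 (SD, n = 2 hairpins) with BMI1 knockdown, a 2.62-fold lower level. With FAL-1 knockdown it was -0.96 ± 0.46 (SD, n = 2 hairpins), a 1.95-fold lower level. Both hairpins of each target passed 1.5-fold, which 0.901% of all genes did in the lower direction with BMI1 knockdown and 0.635% with FAL-1 knockdown. Across the table, 4 genes had a lower mean change than IDO1 with BMI1 knockdown and 93 did with FAL-1 knockdown. Only 7 genes, or 0.038% of all, had every hairpin array at least 1.5-fold below both controls, and IDO1 was one of them. These shares describe the contrasts that chose IDO1 and lend it no support. No gene of the whole table passed limma's test at an adjusted p of 0.05 (0% called in each comparison), and 477 and 563 genes had an unadjusted p under that level with BMI1 and FAL-1 knockdown.

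The controls themselves differed for IDO1, with the FAL-1 control 0.45 log2 units below the BMI1 control. Exchanging the controls gave a mean change of -0.94 for the BMI1 hairpins and -1.41 for the FAL-1 hairpins, so the order of the targets turned with the control used. Both hairpins of each target stayed past 1.5-fold against the other control too, which 2.05% of all genes did in the lower direction for BMI1 and 1.5% for FAL-1. The controls differed by 1.5-fold for 2.55% of all genes and for 0 of the 9 members. The hairpin means were 8.70 ± 0.29 for BMI1 and 8.68 ± 0.46 for FAL-1 (SD, n = 2 each), which differ by far less than the spread between hairpins. Ordered by level, FAL-1 hairpin 2 was the lowest, followed by BMI1 hairpin 2, BMI1 hairpin 1, FAL-1 hairpin 1, the FAL-1 control and the BMI1 control. Neighbours within the hairpins lie within that spread. The hairpin that left more BMI1, hairpin 2, was the one with the lower IDO1 value.

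**Figure D1:**
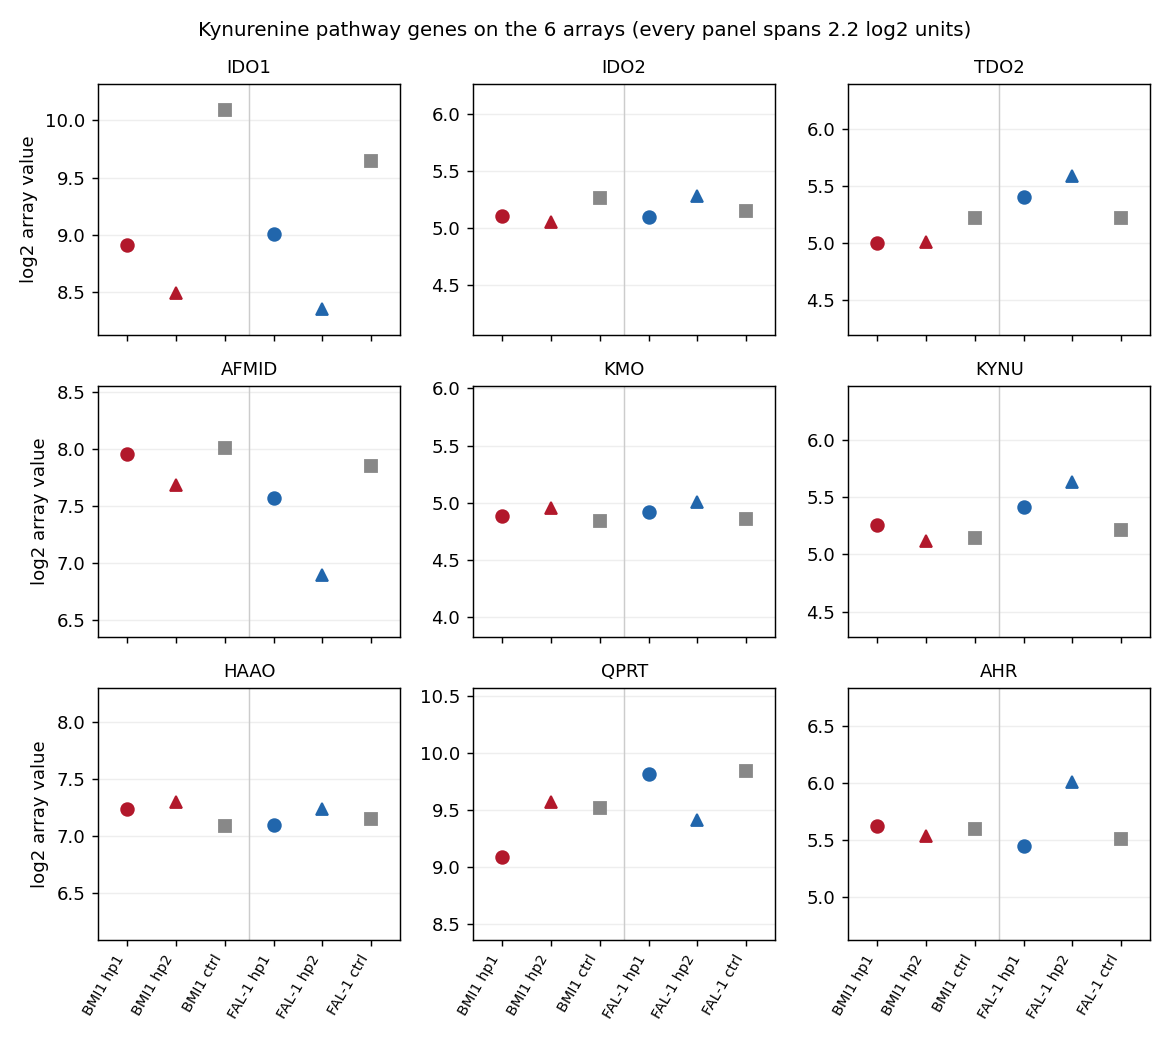
Log2 array values (vertical axis) of the 9 genes on the 6 arrays (horizontal axis), 1 point per array; hp1 and hp2 are hairpins 1 and 2, ctrl is the control, and every panel spans the same number of log2 units. IDO1 is lower on all 4 hairpin arrays (8.35 to 9.01) than on the control arrays (9.64 and 10.09), AFMID is lowest with FAL-1 hairpin 2 (6.89), and QPRT spans 9.09 to 9.84.

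IDO2, a paralog of IDO1 with weak activity on tryptophan, did not share its pattern. It read 5.10 and 5.05 with the BMI1 hairpins, against 5.26 in their control, and 5.10 and 5.28 with the FAL-1 hairpins, against 5.15 in theirs. The hairpin and control values overlapped, and all 6 arrays lay within 0.23 log2 units. The IDO2 probe set is dim, below the lower quartile of every array (5.72 to 5.84), so it could hardly show a fall like that of IDO1. IDO2 is the next measured gene after IDO1 in genome order. The other neighbours named by the same rule, ADAM2, ADAM18 and TCIM, had mean changes of -0.01, 0.05 and -0.12 with BMI1 knockdown. With FAL-1 knockdown the changes were 0.02, 0.03 and -0.07. ADAM2 and ADAM18 were also below the lower quartile of every array.

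TDO2, the tryptophan dioxygenase best known from liver, was lower with both BMI1 hairpins and higher with both FAL-1 hairpins. It read 5.0 and 5.01 with BMI1 hairpins, against 5.22 in their control, and 5.40 and 5.59 with FAL-1 hairpins, against 5.22 in theirs. The controls were nearly the same, so the choice of control did not matter for its mean change of -0.21 ± 0.005 with BMI1 knockdown and 0.28 ± 0.13 with FAL-1 knockdown (SD, n = 2 hairpins each). Of all genes, 6.43% were lower with both BMI1 hairpins and higher with both FAL-1 hairpins. The TDO2 probe set is dim, below the lower quartile of every array (5.72 to 5.84).

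AFMID, the formamidase that releases kynurenine, was the only member besides IDO1 to pass 1.5-fold with any hairpin against its own control. It read 7.57 with FAL-1 hairpin 1 and 6.89 with FAL-1 hairpin 2, against 7.85 in the FAL-1 control. With BMI1 hairpins 1 and 2 it read 7.96 and 7.68, against 8.01 in the BMI1 control. Each hairpin array was lower than its own control, but BMI1 hairpin 1 lay above the FAL-1 control, so hairpin and control values overlapped. The mean change was -0.62 ± 0.48 with FAL-1 knockdown and -0.19 ± 0.19 with BMI1 knockdown (SD, n = 2 hairpins each), and FAL-1 hairpin 2 alone stood at -0.96. With FAL-1 hairpin 1 alone the change was -0.28.

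AFMID lies head to head with TK1, the thymidine kinase made in S phase, and the promoter windows of both are shown because their starts are so close that each window holds part of the other. The windows run from 250 bases before to 50 bases after a RefSeq start (GRCh38.p14). AFMID is on the plus strand at chr17:78187112-78187411, and the TK1 window is on the minus strand at chr17:78187003-78187302. RefSeq starts of TK1 lie 158 and 310 bases from that of AFMID, and the farther one is printed. Capitals mark CCAAT, or ATTGG where it lies on the other strand, a motif chosen after the values were seen that 34.6% of all such windows hold.
AFMID: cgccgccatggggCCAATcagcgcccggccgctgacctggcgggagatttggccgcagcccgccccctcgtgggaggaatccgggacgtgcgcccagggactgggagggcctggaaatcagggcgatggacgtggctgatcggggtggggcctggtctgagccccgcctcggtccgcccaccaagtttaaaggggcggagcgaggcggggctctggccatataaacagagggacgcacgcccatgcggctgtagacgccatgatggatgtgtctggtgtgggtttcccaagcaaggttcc
TK1: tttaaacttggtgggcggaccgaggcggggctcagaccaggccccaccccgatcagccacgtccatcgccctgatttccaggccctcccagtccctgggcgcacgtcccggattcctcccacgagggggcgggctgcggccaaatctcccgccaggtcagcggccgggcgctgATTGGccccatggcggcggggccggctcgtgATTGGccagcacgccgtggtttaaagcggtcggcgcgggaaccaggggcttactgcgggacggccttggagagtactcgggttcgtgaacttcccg
The AFMID window holds 1 CCAAT and the printed TK1 window 2, and the AFMID match is the same site in the genome as one of those for TK1. The TK1 window at the nearer start holds 0.

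TK1, BIRC5 and the 2 genes beyond them were named after their values were seen. TK1 read 10.20 with FAL-1 hairpin 1 and 8.59 with FAL-1 hairpin 2, against 9.95 in the FAL-1 control. It read 9.41 and 9.27 with the BMI1 hairpins, against 10.16 in their control. BIRC5, the mitotic regulator and apoptosis inhibitor survivin, is the next measured gene on the other side of AFMID. It read 8.92 and 7.82 with FAL-1 hairpins 1 and 2, against 8.91 in their control, and 8.53 and 8.41 with the BMI1 hairpins, against 9.07 in theirs. All 3 genes were lowest with FAL-1 hairpin 2, whereas with the BMI1 hairpins TK1 and BIRC5 were lower than their control by more than AFMID was. The next genes outward, SYNGR2, a synaptic-like vesicle protein, and SOCS3, an inhibitor of cytokine signalling, were higher with FAL-1 hairpin 2, at 9.39 and 8.47, against 9.10 and 7.77 in its control. A second, dim BIRC5 probe set gave mean changes of -0.09 with FAL-1 knockdown and -0.01 with BMI1 knockdown. Both flanking genes belong to the cell division cycle, and the part of cycling cells in the AFMID values was not tested.

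**Figure D2:**
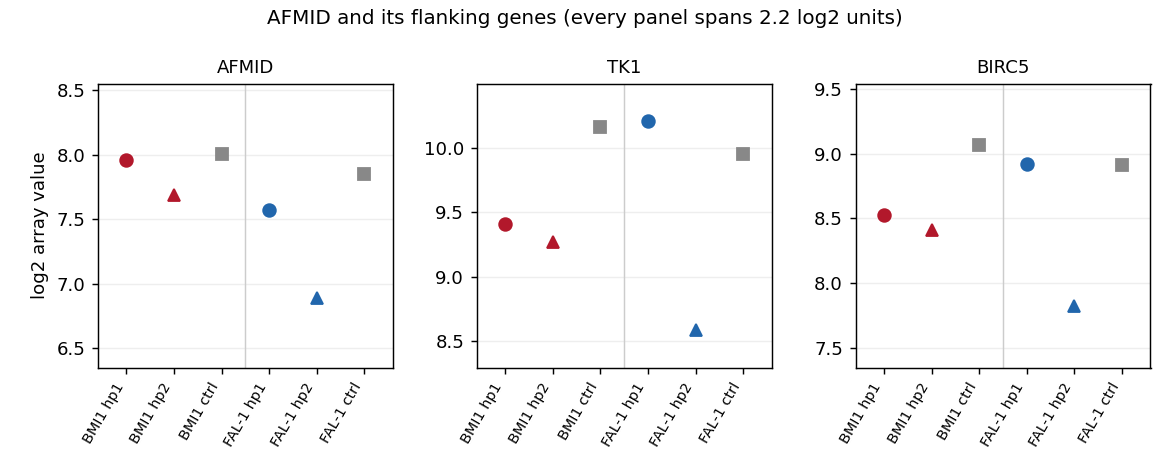
Log2 array values (vertical axis) of AFMID and its flanking genes TK1 and BIRC5 on the 6 arrays (horizontal axis), 1 point per array; hp1 and hp2 are hairpins 1 and 2, ctrl is the control. All 3 are lowest with FAL-1 hairpin 2 (6.89, 8.59 and 7.82), and with FAL-1 hairpin 1 TK1 reads 10.20, above its control at 9.95.

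KMO, the kynurenine hydroxylase, was slightly higher on every hairpin array than on both controls, by little. It read 4.88 and 4.96 with the BMI1 hairpins, against 4.84 in their control, and 4.92 and 5.0 with the FAL-1 hairpins, against 4.86 in theirs. The gap between the lowest hairpin and the highest control was 0.03 log2 units, and 9.02% of all genes were above both controls on all 4 hairpin arrays. The KMO probe set is also below the lower quartile of every array.

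KYNU, the kynureninase that yields anthranilate and 3-hydroxyanthranilate, was higher with both FAL-1 hairpins. It read 5.42 and 5.64 with FAL-1 hairpins 1 and 2, against 5.22 in their control, and 5.26 and 5.11 with the BMI1 hairpins, against 5.14 in theirs. The FAL-1 mean change was 0.31 ± 0.15 (SD, n = 2 hairpins), and 0.38 against the BMI1 control, under 1.5-fold in each array. The BMI1 hairpins lay on either side of their control. The KYNU probe set is likewise below the lower quartile of every array.

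HAAO, the dioxygenase that makes the quinolinate precursor, lay within 0.21 log2 units on all arrays. It read 7.24 and 7.30 with the BMI1 hairpins, against 7.09 in their control, and 7.10 and 7.24 with the FAL-1 hairpins, against 7.15 in theirs. QPRT, which converts quinolinate to a nicotinate nucleotide, read 9.09 and 9.57 with the BMI1 hairpins, against 9.52 in their control. Under FAL-1 hairpins 1 and 2 its values were 9.81 and 9.41, against 9.84 in theirs. For each target 1 QPRT hairpin was lower, by 0.43 log2 units in both cases, and the other lay within 0.06 of its control. The QPRT controls differed by 0.32, and against the other target's control the mean change was -0.51 for the BMI1 hairpins and 0.10 for the FAL-1 hairpins, in place of -0.19 and -0.23.

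AHR, the receptor for kynurenine, had its highest value with FAL-1 hairpin 2. It read 5.45 and 6.01 with FAL-1 hairpins 1 and 2, against 5.51 in their control, and 5.63 and 5.54 with the BMI1 hairpins, against 5.59 in theirs. The other 5 arrays lay between 5.45 and 5.63, below the lower quartile of each. Without FAL-1 hairpin 2 the FAL-1 change was -0.06 in place of 0.22.

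**Figure D3:**
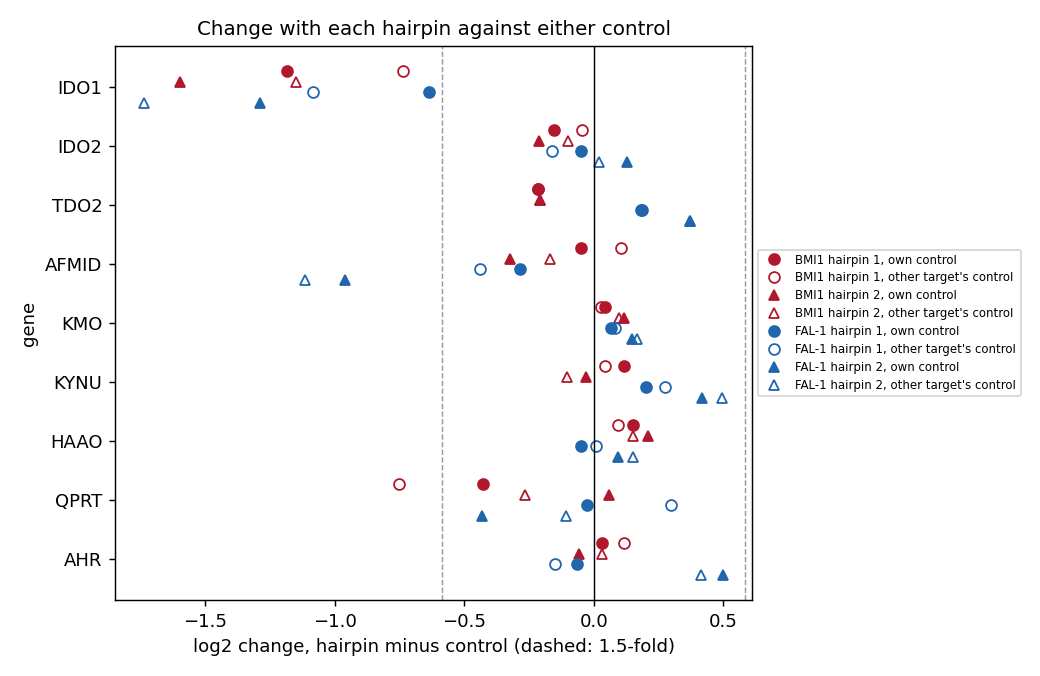
Log2 change of each hairpin (horizontal axis) for the 9 genes (vertical axis), 1 point per hairpin, filled against its own control and open against the other target's control; dashed lines mark 1.5-fold. For IDO1 all 8 points lie past the line, from -1.74 to -0.63, and AFMID passes it only with FAL-1 hairpin 2. QPRT passes it only with BMI1 hairpin 1 against the FAL-1 control (-0.75).

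Of the 9 genes, 4 were lower and 2 higher than their control with both BMI1 hairpins, where 30.7% and 32.9% of all genes were. With both FAL-1 hairpins 3 were lower and 3 higher, where 27.7% and 37.2% of all genes were. The median mean change of the 9 was -0.18 with BMI1 knockdown and 0.04 with FAL-1 knockdown, beside 0.01 and 0.03 over all genes. IDO1 was the only member past 1.5-fold with both hairpins of a target, and it was so for both targets.

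The promoter table holds 8 windows for 7 members (AFMID, AHR, HAAO, KMO, KYNU, QPRT and TDO2), and none was used for IDO1 and IDO2. Motifs were searched on both strands: GCGTG, the core of the element AHR binds with its partner, TTCNNNGAA (the GAS element of interferon gamma signalling, which reads the same on both strands), the ISRE and CCAAT. The first, GCGTG, occurred in the windows of AFMID and AHR, once each, and in 36.5% of all windows. The ISRE occurred in no member window and in 3.6% of all windows. TTCNNNGAA occurred in the KYNU window alone, 2 times, and in 7.7% of all windows. CCAAT occurred 3 times for TDO2, 2 times for KMO and 1 time each for KYNU and AFMID. The KYNU window, shown because it holds both GAS matches (capitals), lies on the plus strand at chr2:142877414-142877713 (RefSeq, GRCh38.p14).
KYNU: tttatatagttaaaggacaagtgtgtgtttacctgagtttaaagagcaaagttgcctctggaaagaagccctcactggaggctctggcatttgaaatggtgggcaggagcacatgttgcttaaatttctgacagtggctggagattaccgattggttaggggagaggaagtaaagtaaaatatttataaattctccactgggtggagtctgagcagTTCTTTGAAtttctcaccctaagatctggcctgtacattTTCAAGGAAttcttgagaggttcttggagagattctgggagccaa
A match shows letters in a window and not a bound factor.

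Around the pathway, 102 further genes of 8 lists were measured. With both BMI1 hairpins 1 of them was at least 1.5-fold lower and 2 were higher, where 0.901% and 0.538% of all genes were. With both FAL-1 hairpins 10 were lower and 2 higher, where 0.635% and 0.576% of all genes were. All 10 lower genes belong to the amino acid shortage list.

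The side branches of the pathway and NAD synthesis had no gene past 1.5-fold with both hairpins of a target among 14 measured, and median changes of -0.04 with BMI1 knockdown and 0.06 with FAL-1 knockdown. NAMPT, the enzyme that recycles nicotinamide into NAD, was lower on every hairpin array than on both controls, as were 8.04% of all genes. It read 10.86 and 11.31 with the BMI1 hairpins, against 11.53 in their control, and 11.15 and 11.19 with the FAL-1 hairpins, against 11.49 in theirs. A second NAMPT probe set gave mean changes of -0.41 and -0.32, close to -0.44 and -0.32 for the first. NADSYN1, which completes NAD from the kynurenine side, had mean changes of 0.30 ± 0.01 with BMI1 knockdown and 0.27 ± 0.12 with FAL-1 knockdown (SD, n = 2 hairpins each). Its BMI1 change was -0.19 against the FAL-1 control, so its direction turned with the control.

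Genes of tryptophan uptake and competing use had medians of 0.00 with BMI1 knockdown and -0.14 with FAL-1 knockdown over 14 genes, with 5 and 9 below the control with both hairpins, where 30.7% and 27.7% of all genes were, and none past 1.5-fold. SLC16A10, a transporter of aromatic amino acids, read 9.32 and 9.14 with the BMI1 hairpins, against 9.74 in their control. It read 9.27 and 8.31 with the FAL-1 hairpins, against 9.44 in theirs. TPH1, which starts serotonin synthesis from tryptophan, had mean changes of -0.34 ± 0.02 and -0.18 ± 0.11 with BMI1 and FAL-1 knockdown (SD, n = 2 hairpins each). Both genes were lower on all 4 hairpin arrays than on both controls, as were 8.04% of all genes. The TPH1 probe set is dim, below the lower quartile of every array (5.72 to 5.84).

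AHR partners had medians of 0.09 with BMI1 knockdown and 0.05 with FAL-1 knockdown over 9 genes, and AHR target genes had 0.00 and 0.07 over 10, with none past 1.5-fold with both hairpins in either list. PTGES3, the p23 co-chaperone of the AHR complex, had mean changes of -0.25 ± 0.24 and -0.28 ± 0.02, and ARNT2, an AHR dimer partner, -0.21 ± 0.04 and -0.33 ± 0.12 (SD, n = 2 hairpins each). Among the targets, CYP1A1, the classic AHR-induced enzyme, read 5.6 and 5.74 with the BMI1 hairpins, against 5.87 in their control, and 5.87 and 5.99 with the FAL-1 hairpins, against 5.97 in theirs. CYP1A1 was named after its values were seen. By the naming rule, CYP1A2 had mean changes of 0.11 and 0.24, and SLC7A5, a tryptophan transporter that AHR can induce, had -0.36 and -0.31. Against the BMI1 control the FAL-1 change of SLC7A5 was 0.06.

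The list of IDO1 inducers and interferon gamma signalling also holds genes that restrain them, SOCS1, SOCS3 and BIN1. Its genes were more often above than below their controls, but its counts are not of inducers alone. SOCS1 is among those above with BMI1 knockdown, and BIN1 among those above with FAL-1 knockdown. Of 18 measured, 10 were above the control with both BMI1 hairpins and 1 below, and 8 were above with both FAL-1 hairpins and 1 below, with medians of 0.09 and 0.06. Over all genes 32.9% and 37.2% were above and 30.7% and 27.7% below. Against the other target's control the medians were -0.03 and 0.27. STAT3, a transcription factor of cytokine signalling, read 10.75 and 10.90 with the BMI1 hairpins, against 10.19 in their control. It read 10.77 and 11.38 with the FAL-1 hairpins, against 10.07 in theirs. STAT3 was thus higher on all 4 hairpin arrays than on both controls, by at least 0.56 log2 units. By any margin, 9.02% of all genes were above both controls on all 4 hairpin arrays. IFNG itself read 5.18 to 5.33 on the 6 arrays, and IRF1, a transcription factor that interferon gamma induces, read 7.93 with FAL-1 hairpin 2, against 6.77 in its control, and 6.45 to 6.93 with the other hairpins. The IFNG values lie below the lower quartile of every array. IFNG and IRF1 were named after their values were seen.

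The 18 measured interferon gamma response genes had medians of 0.04 with BMI1 knockdown and 0.15 with FAL-1 knockdown, with 6 and 9 above and 4 and 4 below the control with both hairpins. Over all genes 32.9% and 37.2% were above and 30.7% and 27.7% below. None passed 1.5-fold with both hairpins of a target. B2M, the light chain of class I antigen presentation, had mean changes of 0.24 ± 0.04 and 0.43 ± 0.01, while IFI30, a lysosomal thiol reductase, had -0.63 ± 0.81 and -0.69 ± 0.38 (SD, n = 2 hairpins each).

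The amino acid shortage list holds EIF2AK4, a kinase that uncharged tRNA activates, and genes of the response to it. Over its 16 genes the median was -0.87 with FAL-1 knockdown. With both FAL-1 hairpins 14 were below the control, where 27.7% of all genes were. With BMI1 knockdown the median was -0.20. With both BMI1 hairpins 8 genes were below and 3 above the control, where 30.7% and 32.9% of all genes were. Both genes that were 1.5-fold higher with BMI1 knockdown, DDIT3 and SESN2, stress-induced regulators, are in this list, DDIT3 with changes of 0.95 and 1.05 with hairpins 1 and 2 and SESN2 with 0.92 and 1.09. Against the FAL-1 control every BMI1 hairpin was lower for both genes. PHGDH, the first enzyme of serine synthesis, was the 1 gene that was 1.5-fold lower, with a mean change of -0.71 ± 0.11 (SD, n = 2 hairpins). These 3 were named after their values were seen. SLC7A11, a cystine transporter, CHAC1, which degrades glutathione, STC2, a secreted glycoprotein, and DDIT4, an inhibitor of growth signalling, had FAL-1 mean changes of -2.53, -2.01, -1.96 and -1.47. This turned with the control: against the BMI1 control the FAL-1 median was -0.09 and the same genes stood at 0.10, -0.05, -0.38 and -0.19, while the BMI1 median was -1.03 against the FAL-1 control.

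Genes that consume NAD had medians of 0.02 with BMI1 knockdown and -0.06 with FAL-1 knockdown over 11 genes. SIRT2, an NAD-dependent deacetylase, read 8.66 and 8.60 with the FAL-1 hairpins, against 7.97 in their control, and 7.70 and 8.20 with the BMI1 hairpins, against 8.08 in theirs. It was the only gene of its list past 1.5-fold with both hairpins of a target, and against the BMI1 control its FAL-1 changes were 0.58 and 0.52, both under that fold.

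**Figure D4:**
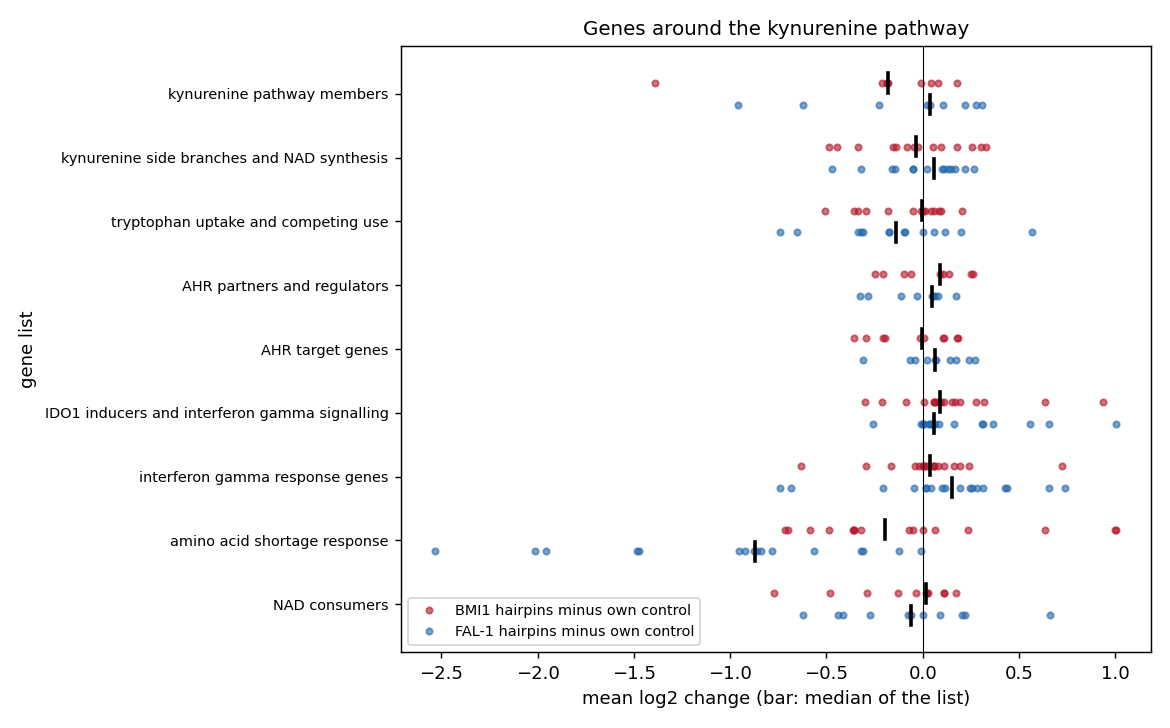
Mean log2 change of each gene (horizontal axis) in the pathway members and the 8 lists around them (vertical axis), for the BMI1 hairpins (red) and the FAL-1 hairpins (blue) against their own control; 1 point per gene, with a bar at the list's median. IDO1 is the far left point of each member row (-1.39 and -0.96), and the amino acid shortage list is the only one with a median past -0.5 (-0.87, FAL-1 hairpins).

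Among 1813 genes that spanned at least 1 log2 unit over the 6 arrays, 10 had a Pearson r of 0.95 or more with IDO1. The highest were CDCA4 (r = 0.986), a nuclear protein linked to E2F-dependent transcription, and PDK1 (0.978), the kinase that shuts off pyruvate dehydrogenase. FBLN1 (0.971), a matrix glycoprotein, PLCE1 (0.967), a phospholipase, LOC100506730 (0.966) and EEF2K (0.963), a kinase that slows translation elongation, followed. These r values describe 6 arrays, which share controls and cell line. PDK1 read 9.46 and 9.25 with the BMI1 hairpins, against 10.46 in their control, and 9.82 and 9.10 with the FAL-1 hairpins, against 10.35 in theirs. Genes chosen for likeness to IDO1 share its order of arrays by that choice.

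**Figure D5:**
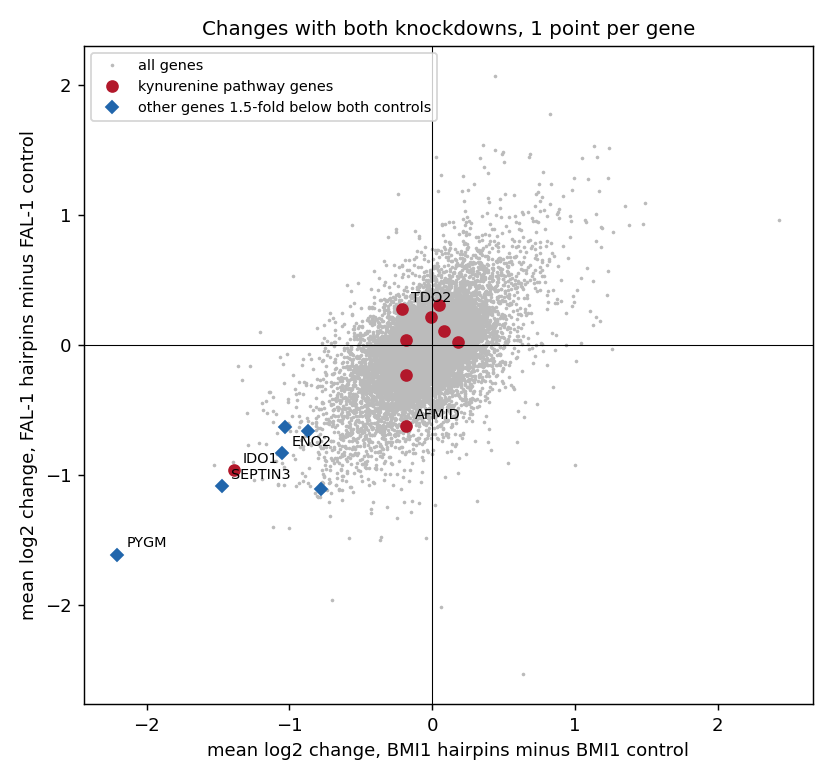
Mean log2 change with the BMI1 hairpins (horizontal axis) and with the FAL-1 hairpins (vertical axis), each minus its own control, 1 point per gene; red circles are the 9 members and blue diamonds the other 6 genes with every hairpin array at least 1.5-fold below both controls. IDO1 lies at -1.39 and -0.96, while the other 8 members lie within 0.22 of 0 on the BMI1 axis.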

How the data were processed

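Per the labels' protocols, biotin-labelled cDNA from total RNA was read on Affymetrix arrays with 1 colour. The deposited table gives log2 values for 33252 probe sets on 6 arrays. The submitters' processing notes name RMA, a method that corrects background, normalizes and summarises probes. Neither its version nor whether all arrays were normalized together is given in the sources used here. Names came from the platform annotation, with symbols updated through gene IDs: 19460 probe sets had 1 symbol, 1754 several and 12038 none listed. The brightest of several probe sets stood for a gene. The BMI1 probe set, also annotated to a readthrough transcript, was kept. This left 18418 genes.

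All 6 arrays entered 1 fit of 4 group means in limma 3.58.1 (R 4.3.3), two-sided, Benjamini-Hochberg over all genes at 0.05. The spread came from 2 residual degrees of freedom, and the lone controls were assumed to vary like the hairpins. An exact permutation of so few arrays was not used. With so few arrays, their number limits the precision. Figures used matplotlib 3.10.9 (Python 3.11.15).

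Members and lists were chosen with earlier results of these data known. Besides the members, the naming rule takes BMI1, up to 4 genes per list at 1.5-fold with both hairpins of a target (otherwise the 2 largest), the 6 genes most like IDO1 and the 2 genes on each side of IDO1. Alternatives were the other control, pooled controls, quantile normalization, cyclic loess, median centring, a filter on dim genes, other probe set rules, other variance priors, other folds, the hairpin number as a block and leaving out each hairpin array.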

Additional observations from a re-analysis of the deposited data

Results flagged for a closer look

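TDO2 went opposite ways with the 2 targets: both BMI1 hairpins were lower than their control (-0.22 and -0.21) and both FAL-1 hairpins were higher (0.18 and 0.37). The FAL-1 change minus the BMI1 change was 0.49. In limma's fit over all genes, the test of that difference did not pass for TDO2 or for any other gene. That outcome therefore does not set TDO2 apart. The same pattern of signs was shown by 6.43% of all genes. The TDO2 probe set is dim, below the lower quartile of every array (5.72 to 5.84).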

How the results depend on the processing

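The IDO1 change was below 0 in all 20 values from the alternatives that give one, between -1.60 and -0.63. Some of these values could not differ from the main ones. Each member has 1 probe set, so the other probe set rules returned the same change. The filter on dim genes only drops genes and left the change of each kept member as it was. Exchanging the controls moved its BMI1 change to -0.94, and leaving out 1 hairpin gave -1.60 to -1.18 with BMI1 and -1.29 to -0.63 with FAL-1. Of 148 values for the other 8 members, such fixed values included, 134 kept their sign. The 14 that did not were in genes with changes of -0.23 to 0.22. QPRT with FAL-1 knockdown (0.10 against the BMI1 control) and AHR (-0.06 without FAL-1 hairpin 2) were among them. No gene was called by limma in any comparison under any alternative, the replicate block (hairpin number) included, with 0 in each. At an unadjusted p under 0.05 the counts were 477 (BMI1), 563 (FAL-1), 962 (average) and 148 (difference), and 782, 1064, 1554 and 286 with the block. The hairpin numbers pair nothing in the labels. Over all genes, deviations of hairpin 1 from its target's hairpin mean correlated at 0.275 between BMI1 and FAL-1. The hairpin 2 deviations are the same with the sign turned, so they add nothing. Genes past 1.5-fold with both hairpins numbered 265 for BMI1 and 223 for FAL-1. Exchanging the controls gave 556 and 732, a 2-fold threshold 36 and 18, and a lower fold threshold 1213 and 1160. With 1 hairpin left, fewer arrays had to pass and the counts were 922 to 1072 for BMI1 and 463 to 2064 for FAL-1. The BMI1 split of 99 higher and 166 lower became 121 and 131 after quantile normalization and 120 and 129 after median centring, and the FAL-1 split of 106 and 117 became 140 and 90 after median centring, 455 and 277 against the BMI1 control and 192 and 139 against pooled controls. The 7 genes at 1.5-fold below both controls on every hairpin array became 4 with the dim filter, 5 after quantile normalization or median centring, and 11 to 55 without 1 hairpin array (55 without FAL-1 hairpin 1). These counts were added after the data were seen, and IDO1 was among the genes each time, with a gap of 0.60 to 0.74. The dim filter, which keeps genes with a mean above that of the median gene, removed 6 members (IDO2, TDO2, KMO, KYNU, HAAO and AHR). HAAO, with a mean of 7.19, lay well above the lower quartile of every array (5.72 to 5.84). For the other removed members, signal over background limits what small changes can show.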

Other observations

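The other 6 genes that every hairpin array placed at least 1.5-fold below both controls were chosen after their values were seen. They were PYGM, muscle glycogen phosphorylase, with mean log2 changes of -2.21 ± 0.07 with BMI1 knockdown and -1.61 ± 0.32 with FAL-1 knockdown, SEPTIN3, a septin best known from neurons, with -1.47 ± 0.53 and -1.08 ± 0.31, and ENO2, neuronal enolase, with -1.05 ± 0.06 and -0.83 ± 0.10 (SD, n = 2 hairpins each). PDGFRB, a growth factor receptor from the list of endothelial and fibroblast markers, had -1.03 ± 0.28 and -0.63 ± 0.06. FZD2, a Wnt receptor, had -0.87 ± 0.05 and -0.66 ± 0.11, and SLC25A40, a mitochondrial carrier, -0.78 ± 0.23 and -1.11 ± 0.20.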
